A study of Homo sapiens with 24 samples.

Results

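Integrins are the receptors by which cells hold on to the extracellular matrix, and the transcripts of 10 of their subunits were followed in Panc-1 cells, an established human pancreatic ductal adenocarcinoma line. The 10 genes were taken by name and comprise 5 alpha subunits (ITGA2, ITGA3, ITGA5, ITGA6 and ITGAV) and 5 beta subunits (ITGB1, ITGB3, ITGB4, ITGB5 and ITGB8), out of 14411 genes listed in any of 3 RNA-seq count tables. Each of the 10 was listed in all 3 tables and passed the filter on low counts in every comparison. The tables hold polyadenylated RNA of 3 stable Panc-1 lines: Tet-One, which carries the doxycycline-inducible vector without an insert, Tet-MIST1, in which doxycycline (Dox) drives a myc-tagged rat MIST1 cDNA, and Tet-PTF1a, in which it drives a myc-tagged mouse PTF1a cDNA. MIST1 and PTF1a are basic helix-loop-helix transcription factors of the pancreatic acinar cell. Every line was grown without Dox (Control) or with Dox at 1 µg/ml for 72 h, with 4 libraries in each of the 6 groups, 24 in all. Each line is a puromycin-selected clone, so that differences between lines cannot be told apart from differences between clones, and the Tet-MIST1 cells were also at a later passage than the others.

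An integrin is a pair of 1 alpha and 1 beta subunit, and the pair decides which matrix protein is bound. The beta-1 subunit (ITGB1) joins many alpha partners and with them forms receptors for collagen (with alpha-2), laminin (with alpha-3 or alpha-6) and fibronectin (with alpha-5). Alpha-6 also pairs with beta-4, whose long cytoplasmic tail ties the cell to keratin filaments in hemidesmosomes, and alpha-V pairs with beta-3, beta-5 or beta-8 to bind vitronectin, fibronectin or latent TGF-beta. In pancreatic ductal tumors integrins are studied for their part in attachment, migration and survival. Pairs form at the protein level, which was not measured here.

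Depth ranged from 17210989 to 43018494 counts per library, and the lowest count of any subunit in any library was 103 (ITGB3, Tet-PTF1a Dox). Across genes, the log2 level of a library differed from the mean of the other 3 of its group with a standard deviation of 0.0710 to 0.228, except in Tet-One Dox, where it was 0.193 to 0.220 in replicates 2 to 4 and 0.572 in replicate 1. That library had the lowest level of its group for 10 of the 10 subunits, and Tet-MIST1 Dox replicate 1 for 9 of 10. Reads at the human PTF1A gene numbered 0 to 2 in the Tet-PTF1a Control libraries and 53 to 168 in the Dox libraries, although the induced cDNA is the mouse one. The human MIST1 gene (BHLHA15) was not listed for Tet-MIST1 cells, so that induction of MIST1 could not be checked in these counts. Of the markers of an epithelial, ductal origin, 8 of 10 were listed, whereas 1 of 6 blood cell markers (CD14, at most 1.43 CPM), 0 of 5 endothelial markers and 2 of 6 fibroblast markers (COL1A1 and PDGFRB) were. In Tet-PTF1a cells the summed level of the 8 epithelial markers was 3382 to 3548 CPM in Control and 1715 to 1767 CPM in Dox, with 5 of the 8 lower and 3 higher, and the part of this shift in the subunit results was not tested. Levels are given as CPM, a gene's counts in each 1000000 counts of its library, scaled by the trimmed mean of M-values. Differences are log2 fold changes of Dox against Control from edgeR's quasi-likelihood test, with their standard error (SE) and the Benjamini-Hochberg adjusted p over all genes tested (FDR). A gene was called when its FDR was below 0.05.

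MIST1 and PTF1a bind E boxes (CANNTG), and PTF1a in its acinar complex also a TC box (TGGGAAA). The 250 bases before the annotated start were therefore read from a set of RefSeq promoters (GRCh38.p14) for the members in that set. Entries were found for 7 of the 10, with 12 starts in all. The set had none for ITGA3, ITGB3 and ITGB4, the members with the largest falls in Tet-PTF1a cells, so their promoters were not searched. Shown are 4 promoters with their E boxes in capitals: those of ITGA2 and ITGB8, whose transcripts fell in both the Tet-MIST1 and Tet-PTF1a lines, that of ITGA5, which fell in Tet-PTF1a cells, and that of the downstream of 2 starts of ITGA6, the member whose transcripts rose. They lie at chr5:52989102-52989351 (plus strand), chr7:20330650-20330899 (plus), chr12:54419267-54419516 (minus) and chr2:172427336-172427585 (plus).
ITGA2: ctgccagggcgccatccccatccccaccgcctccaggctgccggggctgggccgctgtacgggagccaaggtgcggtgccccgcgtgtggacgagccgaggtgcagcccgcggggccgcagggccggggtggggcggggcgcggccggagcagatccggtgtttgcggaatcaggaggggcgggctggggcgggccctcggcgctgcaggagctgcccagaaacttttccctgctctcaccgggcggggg
ITGB8: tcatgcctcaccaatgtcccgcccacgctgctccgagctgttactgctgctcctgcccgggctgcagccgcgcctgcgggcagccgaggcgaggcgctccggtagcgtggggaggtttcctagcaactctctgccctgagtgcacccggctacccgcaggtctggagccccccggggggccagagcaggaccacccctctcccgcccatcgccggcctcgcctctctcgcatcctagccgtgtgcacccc
ITGA5: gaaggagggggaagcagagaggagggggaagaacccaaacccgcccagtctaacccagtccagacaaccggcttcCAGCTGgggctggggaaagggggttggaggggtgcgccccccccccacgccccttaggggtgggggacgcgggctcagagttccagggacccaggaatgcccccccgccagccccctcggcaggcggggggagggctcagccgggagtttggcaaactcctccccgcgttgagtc
ITGA6: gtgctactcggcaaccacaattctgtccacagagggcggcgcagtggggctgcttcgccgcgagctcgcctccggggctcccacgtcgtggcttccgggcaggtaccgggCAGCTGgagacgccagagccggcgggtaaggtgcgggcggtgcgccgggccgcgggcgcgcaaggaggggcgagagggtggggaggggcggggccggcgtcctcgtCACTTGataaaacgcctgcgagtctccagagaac

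No CANNTG lay in the ITGA2 and ITGB8 windows, 1 lay in that of ITGA5, and 2 lay in the ITGA6 window shown. The upstream ITGA6 start had 7 in its 250 bases. Over all listed starts, an E box was found for 4 of the 7 members (ITGA5, ITGA6, ITGAV and ITGB5) and for 60.7% of 10505 genes with an entry. Of its variants, CAGCTG was found for 2 of the 7 members (ITGA5 and ITGA6) and 17.5% of genes, and CATCTG for 1 (ITGA6) and 11.3%. The TC box was found for 0 of the 7 and for 8.45% of genes. Both strands were searched, and CAGCTG and CATCTG are among the CANNTG matches. A gene counted when any of its starts had a match. The 7 members had 12 starts and the 10505 genes had 15333, so that the shares also depend on the number of starts. A match is a run of letters and was not tested for binding.

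To compare levels between genes, CPM were divided by the listed exon length (RPKM). Beta-1 was the most abundant of the 10 in each of the 6 groups. Its mean was 392 RPKM in Tet-One Control, 347 in Tet-MIST1 Control and 344 in Tet-PTF1a Control, which was 51.6% to 53.7% of the sum over the 10 subunits. Beta-5 was second in each group, with 149 RPKM in Tet-One Control, 88.6 in Tet-MIST1 Control and 95.4 in Tet-PTF1a Control. The 5 alpha subunits followed, and beta-3, beta-4 and beta-8 were the lowest 3 everywhere, at 0.877 to 3.65 RPKM.

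**Figure D1:**
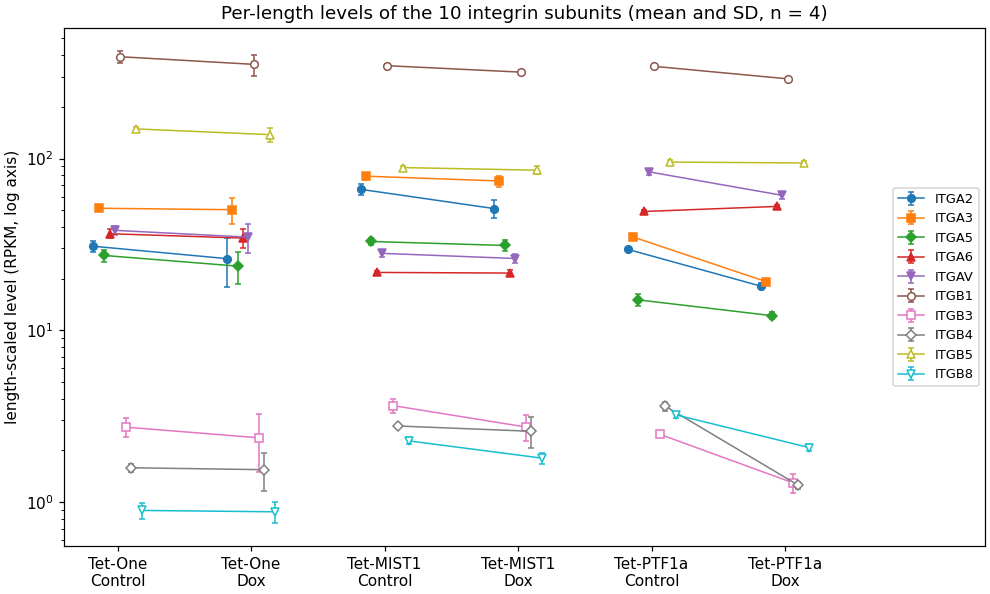
Mean length-scaled level of each subunit in the 6 groups, in RPKM on a log axis, with bars of 1 SD over 4 libraries; filled symbols are alpha and open symbols beta subunits, and a line joins Control and Dox of 1 line. ITGB1 lies at the top of every group and ITGB3, ITGB4 and ITGB8 at the bottom, and the ITGB4 line falls from 3.62 to 1.25 RPKM in Tet-PTF1a cells.

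The order of the alpha subunits depended on the line. In Tet-One Control cells alpha-3 led (51.3 ± 0.556 RPKM, SD, n = 4), followed by alpha-V (38.2 ± 2.19) and alpha-6 (36.5 ± 2.12), whose libraries overlapped, and by alpha-2 (30.8 ± 2.45) and alpha-5 (27.3 ± 2.27), which also overlapped. In Tet-MIST1 Control cells alpha-3 (78.9 ± 3.49) and alpha-2 (66.2 ± 4.67) led, with alpha-6 last at 21.7 ± 0.560, and no neighbors overlapped. In Tet-PTF1a Control cells alpha-V led (83.6 ± 3.14), ahead of alpha-6 (49.2 ± 0.671), alpha-3 (35.0 ± 0.694), alpha-2 (29.6 ± 0.589) and alpha-5 (15.0 ± 1.17), again without overlap. After Dox, the order in Tet-PTF1a cells was the same, but alpha-3 (19.2 ± 0.438) and alpha-2 (18.1 ± 0.699) overlapped. Beta-4 went from rank 8 to rank 10 there, where its libraries overlapped those of beta-3.

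With PTF1a induced, transcripts of 8 of the 10 subunits fell, 1 rose and 1 was not called. The largest fall was that of beta-4, the hemidesmosome subunit, by 65.0%, and those of beta-3 and of alpha-3, a laminin receptor subunit, followed with 46.1% and 45.0%. Alpha-6, the partner of beta-4, rose by 7.23%, and beta-5 was the subunit not called. In this comparison 48.2% of 14053 genes were called, 24.4% as lower and 23.8% as higher. The Control and Dox libraries did not overlap for 9 of the 10 subunits, against 42.1% of all genes. The median of the 10 log2 fold changes was -0.55, and that of all genes was 0.0014. The 10 were chosen with earlier results of these data known. Setting them beside all genes, here and below, is thus a description and not a test. The summed level of the 10 went from 661 ± 5.06 to 553 ± 10.6 RPKM (SD, n = 4). It was also lower with Dox in the other lines. In Tet-MIST1 cells it went from 672 ± 16.5 to 615 ± 24.9 RPKM. In Tet-One cells it went from 730 ± 36.5 to 665 ± 94.7 RPKM, with the lowest Dox library at 524.

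**Figure D2:**
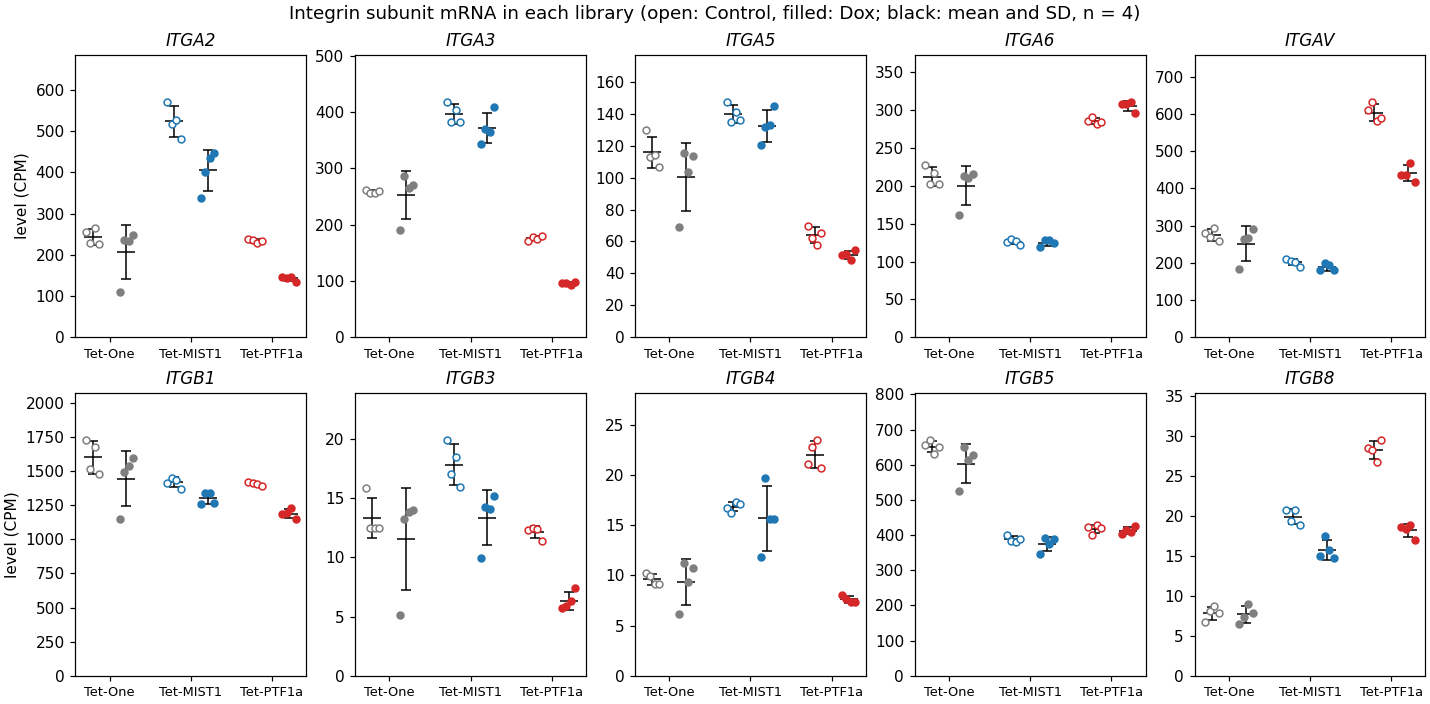
Level of each of the 10 subunits in all 24 libraries, in CPM on axes that start at 0; open points are Control, filled points Dox, and the black mark and bar give mean and SD of 4 libraries. In Tet-PTF1a cells (red) the Dox points of 8 subunits lie below every Control point and those of ITGA6 above, while in Tet-One cells (gray) replicate 1 of the Dox group, the leftmost point, is the lowest of each panel's Tet-One Dox points.

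The laminin-binding subunits held both extremes. Beta-4 (ITGB4, ENSG00000132470, hg19 chr17:73717516-73753899, plus strand) was at 21.1, 22.8, 23.5 and 20.7 CPM in the Tet-PTF1a Control libraries and at 8.04, 7.67, 7.33 and 7.37 CPM with Dox. All Dox libraries lay at less than the lowest Control value, and the log2 fold change was -1.51 (SE 0.0640, FDR 6.76e-26). It began above the Tet-One Control level of 9.62 ± 0.553 CPM and ended below it, at 7.60 ± 0.331 (SD, n = 4). Alpha-3 (ITGA3, ENSG00000005884, chr17:48133340-48167849, plus strand) was at 171, 177, 175 and 179 CPM in Control and at 97.4, 96.6, 93.2 and 98.2 with Dox. The groups were far apart and tight, and the log2 fold change was -0.86 (SE 0.0267, FDR 1.50e-31). Alpha-6 (ITGA6, ENSG00000091409, chr2:173292314-173371181, plus strand), which joins beta-1 or beta-4, was at 286, 290.5, 281 and 285 CPM in Control and at 308, 308, 311 and 296 with Dox. Here every Dox library lay above every Control library, by a small margin (log2 fold change 0.10, SE 0.0221, FDR 1.52e-04). The alpha-6 call was lost when all 24 libraries shared 1 fit, with 0.10 and FDR 0.334.

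Subunits of the collagen and fibronectin receptors fell as well. Alpha-2 (ITGA2, ENSG00000164171, chr5:52285156-52390609, plus strand), which with beta-1 binds collagen, was at 238, 237, 228 and 234 CPM in Control and at 145, 145, 147 and 135 with Dox. The groups did not overlap, and the log2 fold change was -0.71 (SE 0.0256, FDR 6.70e-29), a fall by 39.1%. Alpha-5 (ITGA5, ENSG00000161638, chr12:54789045-54813050, minus strand), the alpha subunit of the classical fibronectin receptor, was at 69.9, 62.4, 58.1 and 65.2 CPM in Control and at 51.7, 51.9, 48.7 and 54.6 with Dox. Its groups came closest among the subunits that fell, with 58.1 CPM as the lowest Control and 54.6 CPM as the highest Dox value (log2 fold change -0.31, SE 0.0457, FDR 8.52e-06). Beta-1 (ITGB1, ENSG00000150093, chr10:33189246-33247293, minus strand), the shared partner of these alpha subunits, was at 1418, 1411, 1405 and 1391 CPM in Control and at 1189, 1191, 1231 and 1147 with Dox. The fall of beta-1 was the smallest of the 8, by 15.3% (log2 fold change -0.24, SE 0.0196, FDR 6.77e-15). As the most abundant subunit it still gave up 53.1 RPKM, more than any other member. The RPKM change of beta-1 was also the largest of any member in Tet-One (-38.1) and Tet-MIST1 cells (-28.7).

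The alpha-V family was split by its beta subunits. Alpha-V (ITGAV, ENSG00000138448, chr2:187454790-187545629, plus strand) was at 609.8, 632, 581 and 589.5 CPM in Control and at 437, 436, 469 and 418 with Dox, again without overlap (log2 fold change -0.45, SE 0.0340, FDR 8.72e-08). Beta-3 (ITGB3, ENSG00000259207, chr17:45331208-45390077, plus strand), which binds vitronectin with alpha-V, was at 12.3, 12.5, 12.4 and 11.4 CPM in Control and at 5.71, 5.89, 6.28 and 7.43 with Dox. The Dox libraries were all low, with a log2 fold change of -0.89 (SE 0.0770, FDR 3.70e-14). Beta-8 (ITGB8, ENSG00000105855, chr7:20370725-20455382, plus strand), whose pair with alpha-V binds latent TGF-beta, was at 28.6, 28.3, 26.8 and 29.5 CPM in Control and at 18.6, 18.4, 18.9 and 17.0 with Dox. It fell by 36.0% without overlap (log2 fold change -0.64, SE 0.0494, FDR 6.42e-16). Beta-5 (ITGB5, ENSG00000082781, chr3:124480795-124606152, minus strand), another vitronectin-binding partner and more abundant than beta-3 and beta-8, ranged from 401 to 428 CPM in Control and from 403 to 425 with Dox. The groups overlapped, and the 95% confidence interval of the log2 fold change ran from -0.06 to 0.03 (FDR 0.639). Its estimate of -0.01 turned to 0.02 when libraries were scaled by their totals alone. In the deposited coordinates no other listed gene overlapped any of the 10.

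**Figure D3:**
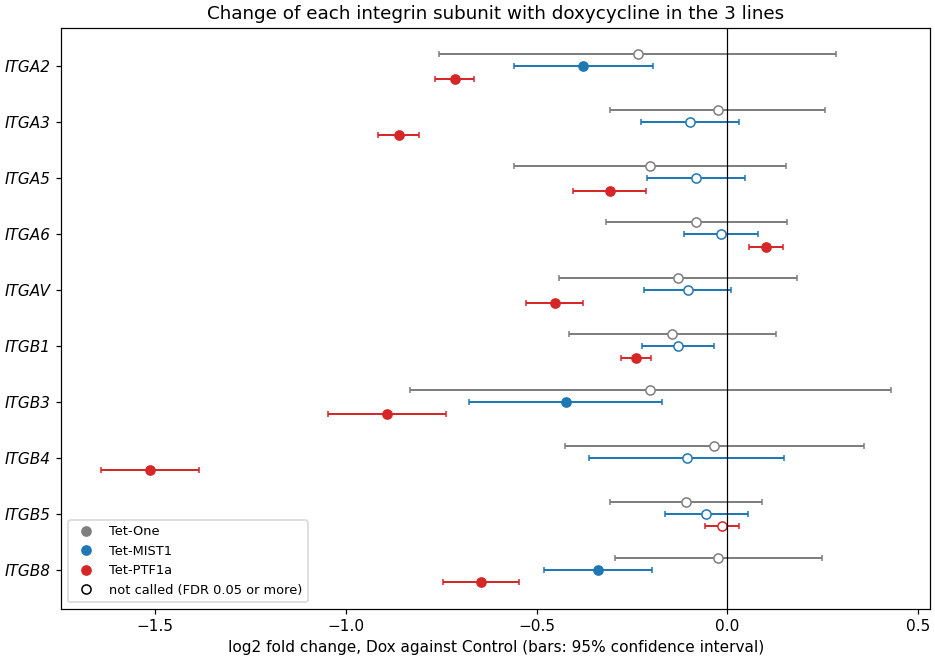
Log2 fold change of Dox against Control for each subunit in the Tet-One (gray), Tet-MIST1 (blue) and Tet-PTF1a (red) lines, with 95% confidence intervals; filled points were called at an FDR below 0.05. The Tet-PTF1a points reach -1.51 for ITGB4, 3 Tet-MIST1 points are filled, and every Tet-One interval spans 0.

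With MIST1 induced, 3 of the 10 subunits fell and none rose. They were alpha-2, beta-3 and beta-8, with falls of 23.0%, 25.4% and 20.9%. In this comparison 20.6% of 13623 genes were called, 8.77% as lower and 11.9% as higher. Libraries of the 2 groups did not overlap for 4 of the 10 subunits, against 26.8% of all genes, and the median log2 fold change was -0.11, against -0.0036 over all genes. All 10 estimates were negative, from -0.02 (ITGA6) to -0.42 (ITGB3). The signs and sizes rested in part on Dox replicate 1. Without that library the estimates of ITGA6 (0.0108) and ITGB4 (0.0128) were positive. Those of alpha-2 (-0.30), beta-3 (-0.30) and beta-8 (-0.31) were smaller falls that were still called. Sizes also depended on the processing. The ITGA6 estimate was 0.0560 with the exon length trend removed. With all libraries kept, 10 alternative fits gave falls as small as -0.27 for alpha-2, -0.38 for beta-3, -0.21 for beta-8 and -0.0034 for alpha-V.

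Alpha-2 was at 570.4, 517, 526 and 481 CPM in the Tet-MIST1 Control libraries and at 337, 399.7, 435 and 446 CPM with Dox. Replicate 1 was the lowest of the Dox group, and the groups did not overlap (log2 fold change -0.38, SE 0.0834, FDR 0.00963). Beta-8 was at 20.7, 19.4, 20.7 and 18.9 CPM in Control and at 15.0, 17.6, 15.8 and 14.8 with Dox. Every Dox value was below every Control value, with a log2 fold change of -0.34 (SE 0.0652, FDR 0.00456). Beta-3 was at 19.9, 17.1, 18.5 and 15.9 CPM in Control and at 9.97, 14.3, 14.1 and 15.2 with Dox. Its groups were apart by less than 1 CPM, and the call was the least secure of the 3 (log2 fold change -0.42, SE 0.116, FDR 0.0253). It was lost without Control replicate 1 (FDR 0.0844), without Control replicate 3 (FDR 0.0715) and when all 24 libraries shared 1 fit (FDR 0.163), and the last also ended the call of alpha-2 (FDR 0.122). Beta-1 missed the threshold, although its groups did not overlap: it ranged from 1371 to 1452 CPM in Control and from 1261 to 1338 with Dox (log2 fold change -0.13, SE 0.0436, FDR 0.0545). Beta-4, which fell most with PTF1a, was at 16.9 ± 0.476 CPM in Control and 15.7 ± 3.23 with Dox, and its interval of the log2 fold change ran from -0.36 to 0.15. For alpha-3, alpha-5, alpha-6, alpha-V and beta-5 the log2 fold changes were -0.10, -0.08, -0.02, -0.10 and -0.06, with FDR of 0.168 to 0.811.

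Dox alone was followed in the Tet-One line, where 0 of the 10 subunits and 0 of 13428 genes (0%) were called by edgeR's quasi-likelihood test. An unadjusted p under 0.05 was reached by 401 genes, and DESeq2 and edgeR's exact test also called 0 of the 10. No subunit had groups that did not overlap, against 2.37% of all genes. All 10 estimates were negative, between -0.02 (ITGB8 and ITGA3) and -0.24 (ITGA2). They rested in part on Dox replicate 1: alpha-2 was at 109.9, 236, 233 and 247 CPM with Dox against 227 to 265 in Control, and beta-3 at 5.17, 13.3, 13.8 and 14.0 CPM against 12.5 to 15.9. Without that library the 10 estimates ran from -0.06 (ITGA5) to 0.12 (ITGB4), and 5 of them were positive. The widest interval with all libraries, that of beta-3, ran from -0.83 to 0.43, so that a fall of the size seen for beta-3 in Tet-MIST1 cells was not detectable in this line at this spread.

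The Dox responses of the lines were then compared directly. Tet-PTF1a against Tet-MIST1 differed for 8 of the 10 subunits, 7 with a deeper fall in Tet-PTF1a cells and 1 higher, where 36.3% of 13521 genes were called, 18.6% lower and 17.7% higher. The differences in log2 fold change were -1.40 for beta-4 (SE 0.148, FDR 3.18e-07), -0.75 for alpha-3 (SE 0.0637, FDR 7.52e-09), -0.47 for beta-3 (SE 0.157, FDR 0.0261), -0.34 for alpha-V (SE 0.0638, FDR 2.97e-04) and -0.32 for alpha-2 (SE 0.0923, FDR 0.00973). Those of beta-8, alpha-5 and alpha-6 were -0.29 (FDR 0.00823), -0.21 (FDR 0.0423) and 0.13 (FDR 0.0363). Beta-1 and beta-5 were not called (-0.10, FDR 0.103; 0.05, FDR 0.464), with intervals from -0.19 to -0.0019 and from -0.06 to 0.16. The calls of alpha-5, alpha-6 and beta-3 were the least secure: they were lost without Tet-MIST1 Dox replicate 4, which left 5, and in the fit blocked on replicate number (FDR 0.0686, 0.0786 and 0.0692). Of the 16 fits without 1 library, the alpha-6 call was lost in 11 and the alpha-5 call in 8.

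Tet-PTF1a against Tet-One differed for 3 of the 10, all with a deeper fall in Tet-PTF1a cells, where 12.8% of genes were called, 7.33% lower and 5.52% higher. They were beta-4 (-1.49, SE 0.191, FDR 5.60e-05), alpha-3 (-0.84, SE 0.130, FDR 3.40e-04) and beta-8 (-0.61, SE 0.129, FDR 0.00451). Without Tet-One Dox replicate 1 the count was 7, with alpha-2 (-0.68, FDR 2.93e-09), beta-3 (-0.93, FDR 3.73e-07), alpha-V (-0.44, FDR 7.57e-06) and beta-1 (-0.19, FDR 0.0109) added. Tet-MIST1 against Tet-One differed for 0 of the 10 by edgeR's quasi-likelihood test, where 1.66% of 13879 genes were called, 0.187% lower and 1.48% higher, and beta-8 had the smallest unadjusted p (-0.32, interval -0.61 to -0.03, FDR 0.356). Of the 10, 1 had an unadjusted p under 0.05 there, and DESeq2 called 0. Without Tet-One Dox replicate 1, alpha-2 (-0.34, FDR 0.0454) and beta-8 (-0.38, FDR 0.0372) were called. The Tet-PTF1a comparisons share the Tet-PTF1a libraries and the Tet-One comparisons the Tet-One libraries.

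Before any Dox, most genes differed between the lines, and the subunits were called at about the share of all genes. In Tet-MIST1 Control against Tet-One Control all 10 subunits were called, 6 higher and 4 lower, where 80.2% of genes were called, 39.5% higher and 40.7% lower. Beta-8 was 2.53-fold and alpha-2 2.15-fold higher, with log2 differences of 1.34 and 1.10, and alpha-6 and beta-5 were lower, with log2 differences of -0.75 each. In Tet-PTF1a Control against Tet-One Control 8 were called, 4 higher and 4 lower, where 79.7% of genes were called, 39.5% higher and 40.1% lower. Beta-8 was 3.55-fold, beta-4 2.24-fold and alpha-V 2.17-fold higher, with log2 differences of 1.83, 1.16 and 1.12, and alpha-6 followed at 0.41. Alpha-5 (-0.87), beta-5 (-0.66), alpha-3 (-0.57) and beta-1 (-0.20) were lower. Alpha-2 (-0.07, FDR 0.135) and beta-3 (-0.16, FDR 0.0742) were not called. The difference of beta-8 between these clones was larger than any change of a subunit with Dox: its level was 7.84 ± 0.811 CPM in Tet-One Control, 28.3 ± 1.14 in Tet-PTF1a Control and 18.2 ± 0.833 with Dox (SD, n = 4).

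For 4 pairs of subunits the ratio of their length-scaled levels was taken within each library. The pairs were chosen with the fold changes known and the ratios use the same counts, so they are a description of unequal changes and not a further test of them. A two-sided exact permutation test over 70 splits allows no p below 0.0286, and no ratio passed 0.05 after adjustment over the 12 ratios (smallest adjusted p in the exact permutation test 0.0571). In Tet-PTF1a cells all 4 ratios had groups without overlap. The beta-4 to beta-1 ratio was 0.0105 in Control and 0.00430 with Dox, and that of beta-3 to beta-5 was 0.0260 and 0.0136. The alpha-6 to alpha-3 ratio of the laminin receptors was 1.41 and 2.75, and the alpha-5 to alpha-2 ratio was 0.507 and 0.674. In Tet-MIST1 cells the beta-3 to beta-5 ratio (0.0410 and 0.0316) and the alpha-5 to alpha-2 ratio (0.498 and 0.612) were also without overlap, whereas alpha-6 to alpha-3 and beta-4 to beta-1 overlapped. In Tet-One cells the groups overlapped for all 4 ratios.

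**Figure D4:**
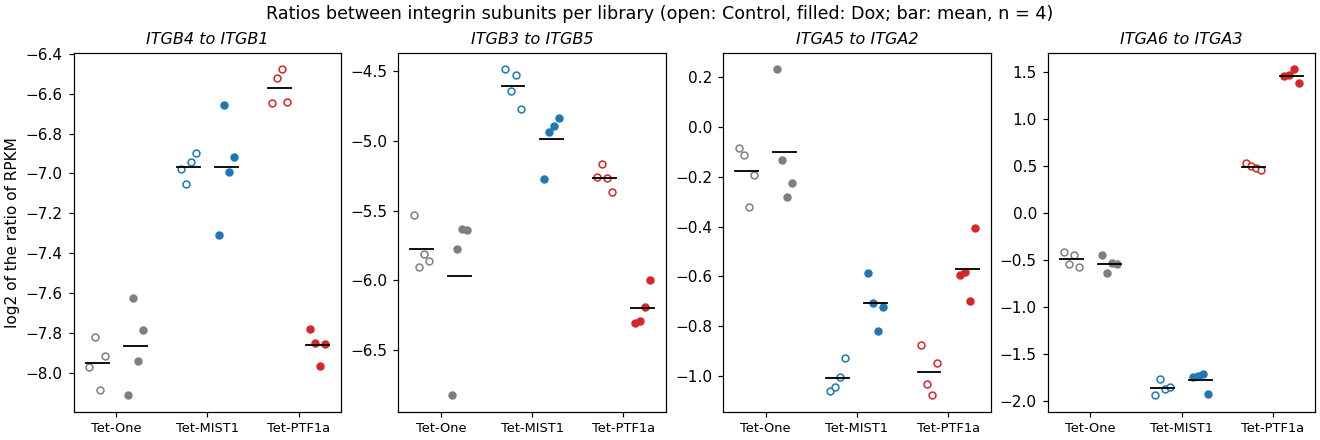
Log2 ratio of the length-scaled levels of 4 subunit pairs in every library; open points are Control, filled points Dox, and the bar is the mean of 4. In Tet-PTF1a cells (red) Control and Dox are apart in all 4 panels, with ITGA6 to ITGA3 moving from a mean of 0.49 to 1.46.

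The other 16 integrin genes were mostly low or not listed. In Tet-PTF1a cells 7 were tested, and 3 rose and 1 fell, with a median of -0.01. Alpha-7 (ITGA7), a laminin receptor subunit best known from muscle, rose from 4.15 ± 0.511 to 11.4 ± 1.32 CPM (log2 fold change 1.43, SE 0.0885, FDR 5.09e-19). Alpha-1 (ITGA1), which like alpha-2 pairs with beta-1 to bind collagen, rose from 8.86 ± 0.0985 to 16.3 ± 0.712 CPM (0.87, SE 0.0626, FDR 7.60e-17). Transcripts of alpha-1 thus rose in the cells in which those of alpha-2 fell. ITGA2B, known from platelets, fell from 2.97 ± 0.201 to 2.04 ± 0.389 CPM (-0.57, SE 0.135, FDR 3.66e-04). ITGAM was called higher but stayed below 1 CPM. In Tet-MIST1 cells 8 were tested and 0 were called by edgeR's quasi-likelihood test, while DESeq2 called 1 and edgeR's exact test 2.

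The counts of the lists of adhesion genes that follow are to be read against all genes, of which 48.2% were called in Tet-PTF1a and 20.6% in Tet-MIST1 cells. Among the matrix ligands, laminin chains gave 5 lower and 2 higher of 8 tested in Tet-PTF1a cells, with a median log2 fold change of -0.23. LAMA3 (-0.98, SE 0.117), the alpha chain of laminin-332, which alpha-6 beta-4 and alpha-3 beta-1 bind, fell, and so did LAMC3 (-0.36, SE 0.0412), while LAMB1 (0.28, SE 0.0267) and LAMC1 (0.15, SE 0.0222) rose. In Tet-MIST1 cells 4 of 10 laminin chains fell and 0 rose, among them LAMA1 (-0.67, SE 0.144) and LAMA4 (-0.48, SE 0.155), whose call was lost in 10 of 18 alternative fits. Of 7 hemidesmosome partners, 4 of 5 tested fell in Tet-PTF1a cells, with a median of -0.44, among them LAMA3 as given, PLEC, which links beta-4 to keratins (-0.44, SE 0.0205), and the tetraspanin CD151 (-0.25, SE 0.0222). In Tet-MIST1 cells 2 of 7 fell, whereas PLEC (-0.17, FDR 0.258) and CD151 (0.09, FDR 0.275) were not called.

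Of 10 collagen chains tested in Tet-PTF1a cells, 3 were higher and 2 lower, with a median of 0.05, which is close to the share of all genes called (23.8% higher and 24.4% lower). COL3A1 (1.35, SE 0.0707), COL5A2 (0.70, SE 0.0248) and COL6A3 (0.29, SE 0.112) rose, and COL1A1 (-1.25, SE 0.0286) and COL4A5 (-0.16, SE 0.0565) fell. In Tet-MIST1 cells 2 of 7 were called, COL6A3 (-0.47, SE 0.141) and COL6A2 (-0.25, SE 0.0630), both lower. Leaving out replicate 1 or replicate 3 of the Control group gave 0 collagen calls, as did the fit blocked on replicate number, and over 18 alternative fits the call of COL6A3 was lost in 10 and that of COL6A2 in 4. In Tet-PTF1a cells the calls of COL6A3 and COL4A5 were lost in 6 and 4 of 18. Ligands bound through the RGD motif and other matrix ligands gave 4 higher and 8 lower of 13 in Tet-PTF1a cells, with a median of -0.24. THBS1, an adhesive glycoprotein that also activates TGF-beta, rose from 6.02 ± 0.461 to 36.5 ± 1.87 CPM (2.59, SE 0.0598), and TGFB3 rose from 7.19 ± 0.752 to 23.7 ± 0.597 CPM (1.74, SE 0.0627). MFGE8 (-1.03, SE 0.0270) and EDIL3 (-0.78, SE 0.0800), both ligands of alpha-V integrins, fell, as did LTBP1 (-0.30, SE 0.0343). Fibronectin (FN1), the ligand of alpha-5 beta-1, was low at 6.52 ± 0.624 CPM and was called at 0.22 (SE 0.0835, FDR 0.0270), a call lost in 8 of 18 alternative fits, with FDR of up to 0.697. In Tet-MIST1 cells 1 of 10 was called, TGFB3 (0.38, SE 0.0803), and FN1 was not (-0.85, SE 0.378, FDR 0.127).

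**Figure D5:**
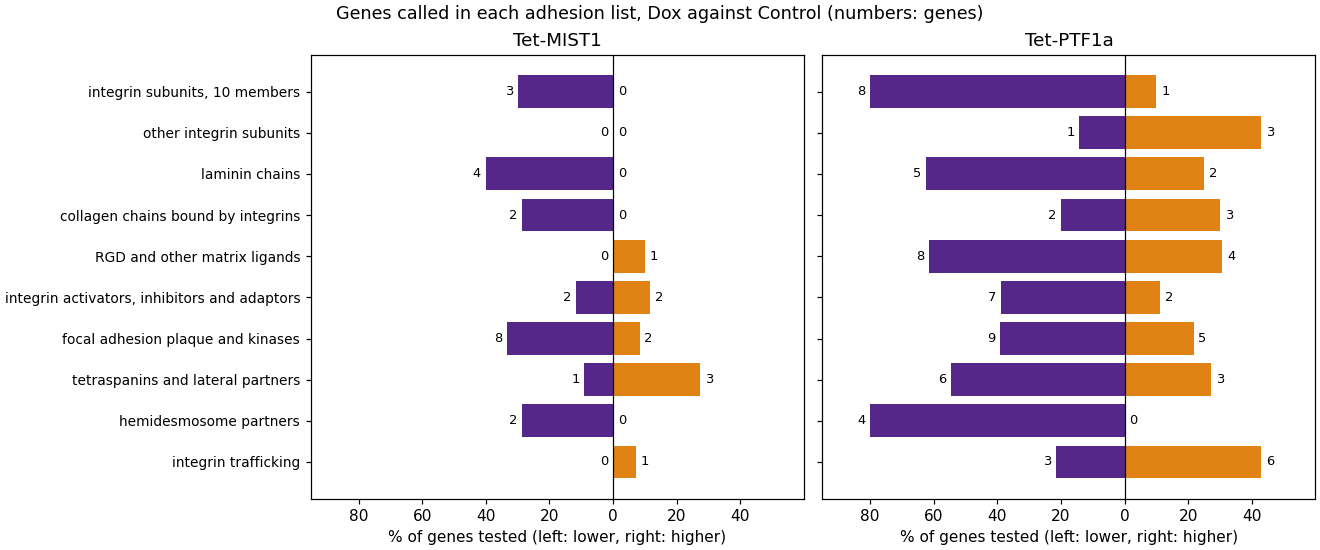
Genes called in each list of adhesion genes in the Tet-MIST1 and Tet-PTF1a lines, as a percentage of those tested (left of 0, lower with Dox; right, higher), with the number of genes at each bar. The 10 subunits have 8 lower and 1 higher in Tet-PTF1a cells and 3 lower in Tet-MIST1 cells, where background shares of all genes are 24.4% and 8.77% lower.

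On the cytoplasmic side, talin (TLN1), which activates integrins by binding the beta tail, was not called in Tet-PTF1a cells (-0.01, FDR 0.796) but was called lower in Tet-MIST1 cells (-0.35, SE 0.0977), and the responses differed by 0.35 (SE 0.107, FDR 0.0151). The Tet-MIST1 call was lost in 5 of 18 alternative fits, with FDR of up to 0.202. Of 18 activators, inhibitors and adaptors tested in Tet-PTF1a cells, 2 rose and 7 fell, with a median of -0.02. The total called was close to the share of all genes, but falls outnumbered rises. Over all genes, 24.4% were lower and 23.8% higher. The actin crosslinker FLNA (-0.57, SE 0.0200), the kindlin FERMT1 (-0.50, SE 0.0781) and LIMS2 (-0.37, SE 0.103) had the largest falls, and FERMT2 (0.11, SE 0.0283) was among those that rose. In Tet-MIST1 cells 2 of 17 rose, ILK (0.46, SE 0.0461) and FERMT2 (0.26, SE 0.0497), and 2 fell, TLN1 and FERMT1 (-0.38, SE 0.112), a count also close to that of all genes. The FERMT1 call was lost in 7 of 18 alternative fits. Focal adhesion genes gave 5 higher and 9 lower of 23 in Tet-PTF1a cells, with a median of -0.06. The kinase FYN (0.80, SE 0.0868), GIT2 (0.67, SE 0.0308) and vinculin (VCL, 0.50, SE 0.0198) rose, and paxillin (PXN, -0.41, SE 0.0208), TGFB1I1 (-0.33, SE 0.0444), ZYX (-0.31, SE 0.0289) and focal adhesion kinase (PTK2, -0.28, SE 0.0253) fell. In Tet-MIST1 cells 2 of 24 rose, FYN (0.34, SE 0.0701) and YES1 (0.14, SE 0.0408), and 8 fell, among them PTK2B (-0.45, SE 0.114), VCL (-0.36, SE 0.0979), DOCK1 (-0.35, SE 0.106) and PTK2 (-0.24, SE 0.0613). Over 18 alternative fits the calls of YES1 and DOCK1 were lost in 7 each, those of VCL and PTK2 in 4 each and that of PTK2B in 1. Vinculin was thus called in opposite directions in the 2 lines, and its responses differed by 0.88 in log2 terms (SE 0.106, FDR 2.62e-06).

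Tetraspanins and other lateral partners, which sit beside integrins in the membrane, gave 3 higher and 6 lower of 11 in Tet-PTF1a cells, with a median of -0.14. CD82 (0.84, SE 0.0724), CD63 (0.41, SE 0.0228) and CD81 (0.16, SE 0.0231) rose, and CD9 (-0.55, SE 0.0290), CAV1 (-0.53, SE 0.0201) and TSPAN4 (-0.46, SE 0.0356) fell. In Tet-MIST1 cells SLC3A2 (0.29, SE 0.0597), CD82 (0.28, SE 0.0630) and CD9 (0.24, SE 0.0549) rose and CAV1 (-0.18, SE 0.0423) fell, of 11. Genes of integrin trafficking, which move receptors in either direction between the surface and endosomes, gave 6 higher and 3 lower of 14 in Tet-PTF1a cells. Their median was 0.02. RAB11FIP1 (1.05, SE 0.0415), DAB2 (0.62, SE 0.0994) and NUMB (0.15, SE 0.0273) rose, and ARF6 (-0.33, SE 0.0236), VPS35 (-0.14, SE 0.0227) and RAB11A (-0.11, SE 0.0242) fell. DAB2 (0.53, SE 0.111) was the 1 called of 14 in Tet-MIST1 cells. In Tet-One cells 0 genes of any of these lists were called.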

How the data were processed

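RNA was sequenced by the authors as paired ends on an Illumina HiSeq instrument and aligned with TopHat to hg19. The submitters' processing notes name HTSeq, DESeq and edgeR without versions, and the annotation and the use of strand are not given in the sources used here. The authors deposited 1 table per line, with raw counts per gene, which were used, and a CPM-like score scaled by an adjusted library size, which was read only to compare scale factors. The columns of their own comparisons (fold changes, p-values and FDR) were not used. Groups were taken from the sample titles, 4 biological replicates each, and every library was kept.

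Counts were filtered in each comparison at 0.5 CPM in at least 4 libraries, scaled by TMM and fitted with edgeR 4.0.16 (robust quasi-likelihood, R 4.3.3). Fold changes carry a prior count of 2, intervals are 95%, and p-values were adjusted by Benjamini-Hochberg over all genes tested. Responses were compared by an interaction term over the libraries of both lines. Printed CPM use TMM factors over the 24 libraries, and RPKM the listed exon length. The test was run on simulated counts before use. Alternatives were DESeq2 1.42.0, edgeR's exact test, other scalings and filters, 1 fit over 24 libraries, removal of the exon length trend, a replicate term, and leaving out each library. Extra genes were named by size: up to 3 called in each direction per list with a mean above 1 CPM, plus CD151, FN1, TLN1, FERMT2, PTK2, PLEC and ITGB6 where tested (ITGB6 was in no fit). Some genes that this rule names are not reported here. The members and all lists were chosen with earlier results of these data known. Over 36 pairs of replicates, chi-square per degree of freedom was 1.38 to 236, so that no 2 libraries were identical within sampling noise.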

Additional observations from a re-analysis of the deposited data

Results flagged for a closer look

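Among 60 sets of 4 libraries (10 subunits in 6 groups), 5 had a library farther from the others, relative to the group's range, than Dixon's critical value allows, where chance gives about 1 in 20. In Tet-One Dox, replicate 1 was low for ITGA2 (109.9 CPM), ITGA6 (161 CPM) and ITGB3 (5.17 CPM). In Tet-One Control, replicate 1 was high for ITGB3 (15.9 CPM), and in Tet-PTF1a Control, replicate 4 was low for ITGB3 (11.4 CPM).

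The response to Dox differed between lines, by the interaction term in edgeR, for 11 combinations of subunit and line pair. Tet-PTF1a against Tet-One differed for ITGA3 (-0.84, FDR 3.40e-04), ITGB4 (-1.49, FDR 5.60e-05) and ITGB8 (-0.61, FDR 0.00451). Tet-PTF1a against Tet-MIST1 differed for ITGA2 (-0.32), ITGA3 (-0.75), ITGA5 (-0.21), ITGA6 (0.13), ITGAV (-0.34), ITGB3 (-0.47), ITGB4 (-1.40) and ITGB8 (-0.29), with FDR of 7.52e-09 to 0.0423. The smallest 3 of these in significance, ITGA5, ITGA6 and ITGB3, are also those that were lost under some alternatives.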

How the results depend on the processing

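In Tet-PTF1a cells, 8 or 9 subunits were called in each of the alternatives tried and 9 without any 1 library. In Tet-MIST1 cells, 1 was called when all 24 libraries shared 1 fit, against 3, and 2 to 4 without 1 library; ITGB1, not called, passed in 7 settings. Tet-One gave 0 throughout. For the interactions, Tet-MIST1 against Tet-One gave 0 to 2 without 1 library and Tet-PTF1a against Tet-One 3 to 7, the 2 and the 7 without Tet-One Dox replicate 1, and Tet-PTF1a against Tet-MIST1 gave 5 to 9, the 5 without Tet-MIST1 Dox replicate 4. In the last, the call of ITGA6 was lost in 11 and that of ITGA5 in 8 of 16 such fits. The sample titles do not say whether libraries of the same replicate number were paired. The correlation of same-numbered deviations was -0.379 to 0.354 in Tet-One, -0.404 to 0.0623 in Tet-MIST1 and -0.0315 to 0.0777 in Tet-PTF1a cells. Only Tet-PTF1a Control replicate 4 matched the Dox library of its own number best. A replicate block gave 5 calls for Tet-PTF1a against Tet-MIST1 and ended the Tet-MIST1 call of ITGB3 (FDR 0.0620). In the other lists, 1 fit over 24 libraries gave 4 laminin, 2 collagen, 4 activator, 9 focal adhesion and 4 trafficking genes in Tet-PTF1a cells, against 7, 5, 9, 14 and 9. In Tet-MIST1 cells the focal adhesion count ran from 3 to 12, against 10, and the activator count from 2 to 7, against 4. The Tet-MIST1 collagen count ran from 0 to 2, against 2. The 24-library fit also ended the calls of LAMC1, FERMT2, CD81, PLEC, NUMB and RAB11A in Tet-PTF1a cells and of SLC3A2 in Tet-MIST1 cells, and a replicate block, for CD9 together with the exon length correction, those of CAV1 and CD9 in Tet-MIST1 cells. Leaving out 1 library moved each ratio by less than the spread between replicates.

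Signs turned only for values that were not called. With the exon length trend removed, without and with the replicate block, they were 0.0281 and 0.0251 for ITGA3, 0.0310 and 0.0237 for ITGB4 and 0.10 and 0.0962 for ITGB8 in Tet-One, and 0.0560 and 0.0560 for ITGA6, 0.00672 and 0.00903 for PLEC and -0.00899 and -0.00967 for CD151 in Tet-MIST1 cells. Scaling by totals gave 0.0231 for ITGB5 and 0.0294 for TLN1 in Tet-PTF1a cells and 0.0121 for ITGA2 in Tet-PTF1a Control against Tet-One Control. Without 1 library, the ranges that crossed 0 in Tet-One were -0.0926 to 0.0882 for ITGA3, -0.12 to 0.00698 for ITGA6, -0.31 to 0.0388 for ITGB3, -0.14 to 0.12 for ITGB4 and -0.11 to 0.0442 for ITGB8. In Tet-MIST1 cells they were -0.0332 to 0.0108 for ITGA6 and -0.24 to 0.0128 for ITGB4, and in Tet-PTF1a cells -0.0238 to 0.00679 for TLN1. For the response of Tet-MIST1 against Tet-One they were -0.0129 to 0.19 for ITGA5, -0.0181 to 0.0960 for ITGA6, -0.0922 to 0.0984 for ITGAV, -0.0728 to 0.0603 for ITGB1, -0.22 to 0.0397 for ITGB4 and -0.00182 to 0.0874 for ITGB5. The cause of these changes was not tested.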
